A study of Homo sapiens with 6 samples.

Results

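Metallothioneins and their partners in zinc balance were followed in HCT116 cells, a human colorectal carcinoma line, after exposure to NU7441. The genes were 7 metallothioneins, MT1A, MT1E, MT1F, MT1G, MT1M, MT1X and MT2A, the zinc-sensing transcription factor MTF1, the zinc exporter SLC30A1 and the zinc importer SLC39A10. They were found by the gene symbol of the platform annotation, and every probe so named was taken. This gave 11 of the 47323 probes on the array, for 9 of the 10 genes. No probe carried the name MT1A in that annotation, so MT1A was not analysed here. Probes entered the fit where every array of the vehicle group or every array of the NU7441 group gave a detection p under 0.05, as 14973 did, 10 of the 11 among them, for 8 genes. The genes were selected on the differences between these same NU7441 and vehicle arrays, so their values are a description and carry no p-value.

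One group of 3 samples had received 40 µM NU7441, a compound that blocks DNA-PK, a kinase of DNA break repair. The other group of 3 had received 0.1% (v/v) dimethyl sulfoxide, the vehicle, and both were harvested at 48 h. Total RNA of each sample was hybridised to 1 Illumina bead array. All samples were HCT116 cells without any labelled genetic change, and the labels do not say whether the replicates were separate cultures. What the p-values of other genes measure is thus the spread among these samples, and it may be technical. The lists of other genes below were also written with earlier results of these data known. The genes named from each are mostly those with the largest changes, so their p-values are a description and not an independent test.

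Metallothioneins are small, cysteine-rich proteins that bind zinc and copper ions and buffer free zinc in the cell. Their genes are switched on by MTF1, which senses zinc through its zinc fingers and binds short promoter sequences called metal response elements. SLC30A1, also called ZnT1, exports zinc across the plasma membrane and is itself a target of MTF1. SLC39A10, also called ZIP10, brings zinc into the cell, and MTF1 is known from mouse cells to repress it.

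Promoter sequence was at hand for 5 of the 10 genes, MT1X, MT2A, MTF1, SLC30A1 and SLC39A10, from RefSeq on build GRCh38.p14. The 250 bases before the gene start were searched on both strands for the core of the metal response element, spelled TGCACNC or TGCGCNC, and matches that overlapped were counted once. MT2A and MT1X, both brighter after NU7441, are shown with SLC30A1, a target of MTF1 that was not, and with MT1H, a metallothionein of the same cluster outside the 10 genes. Each runs 5′ to 3′ on the gene's strand, and capitals mark the cores. MT2A lies on the plus strand at chr16:56608334-56608583, MT1X on the plus strand at chr16:56682220-56682469, SLC30A1 on the minus strand at chr1:211579162-211579411 and MT1H on the plus strand at chr16:56669564-56669813.
MT2A: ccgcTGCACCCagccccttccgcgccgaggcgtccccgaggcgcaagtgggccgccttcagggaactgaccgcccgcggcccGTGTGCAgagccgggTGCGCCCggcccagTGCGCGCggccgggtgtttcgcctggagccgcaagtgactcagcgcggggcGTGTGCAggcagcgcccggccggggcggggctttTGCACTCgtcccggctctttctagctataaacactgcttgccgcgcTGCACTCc
MT1X: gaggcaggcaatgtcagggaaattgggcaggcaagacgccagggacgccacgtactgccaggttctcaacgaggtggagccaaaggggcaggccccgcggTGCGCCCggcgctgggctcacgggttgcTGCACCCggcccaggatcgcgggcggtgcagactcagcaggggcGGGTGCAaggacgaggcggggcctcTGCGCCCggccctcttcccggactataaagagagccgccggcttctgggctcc
SLC30A1: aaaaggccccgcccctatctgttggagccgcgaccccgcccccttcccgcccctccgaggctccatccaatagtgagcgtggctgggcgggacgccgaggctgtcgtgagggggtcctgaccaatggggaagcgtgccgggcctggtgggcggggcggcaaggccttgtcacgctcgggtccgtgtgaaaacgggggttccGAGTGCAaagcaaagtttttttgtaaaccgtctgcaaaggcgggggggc
MT1H: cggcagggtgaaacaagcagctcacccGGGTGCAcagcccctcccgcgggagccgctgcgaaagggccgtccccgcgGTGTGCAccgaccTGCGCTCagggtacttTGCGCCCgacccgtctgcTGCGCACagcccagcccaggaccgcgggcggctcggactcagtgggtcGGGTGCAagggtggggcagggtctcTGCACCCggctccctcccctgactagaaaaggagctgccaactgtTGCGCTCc

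MT2A held 7 cores in this window and MT1X held 4. Of 35116 RefSeq promoter windows of the same length, 0.0228% held 7 or more, 0.208% held 4 or more and 24.8% held at least 1. MT1H held 8, a number reached by 0.0142% of windows. SLC30A1 held 1 core, and MTF1 and both windows of SLC39A10 held 0. Counting the base before the gene start as -1, MT1X and MT1H each had a core from -53 to -47 and another, on the opposite strand, from -78 to -72. MT2A had a core from -54 to -48 and one ending at -2. MT1B, with 3 cores, also had one from -53 to -47. The core of the antioxidant response element, TGACNNNGC, occurred once in each of MT2A, MT1X and SLC30A1 and in 10.9% of all windows. A match is a description of the letters and not of binding, and its absence says only that these letters are not in the window.

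**Figure D1:**
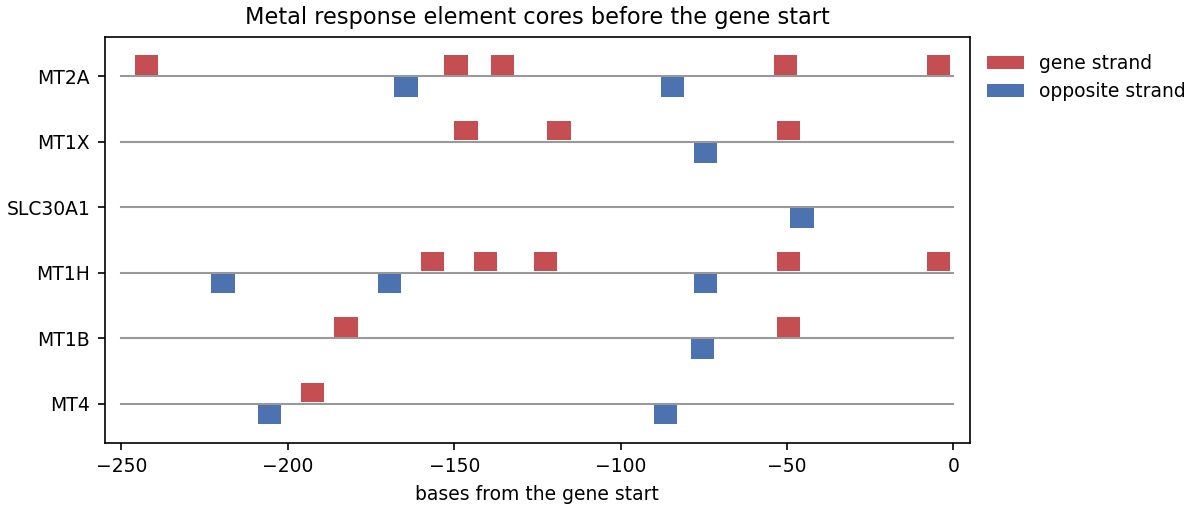
Positions of metal response element cores in the 250 bases before the start of 6 genes, with bases from the gene start on the horizontal axis, red boxes on the gene's strand and blue boxes on the opposite strand. MT2A shows 7 boxes and MT1X shows 4, MT1H shows 8, MT1B and MT4 show 3 each, and SLC30A1 shows 1 near its start.

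The 6 arrays detected 16593 to 17788 probes each, or 35.1% to 37.6%, and their median signals lay between 72.8 and 75.3. The first principal component, with 68.3% of the variance, separated the groups. The second, with 12.8%, spread the NU7441 arrays from -16.06 for replicate 1 to 19.17 for replicate 3. Of 8 epithelial markers 5 were detected on all 6 arrays, EPCAM, CDH1, KRT8, KRT18 and KRT19, while VIL1 and CEACAM5 were detected on 0. Of 15 markers of leukocytes, fibroblasts, endothelium, liver and glia with a probe, 1, ALB, was detected on all 6. Precision is limited by there being 3 arrays per group. In bulk RNA, fewer cells with a transcript and less of it per cell cannot be told apart.

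Of the 10 kept probes, 5 passed the threshold of the fit over all kept probes as higher after NU7441, and 0 as lower. All 5 were metallothionein probes, for MT1E, MT1G, MT1X and MT2A, and in all 5 the NU7441 arrays lay above all vehicle arrays. The dimmer of the MT1E probes entered the fit through the NU7441 arrays alone. With a detection p below 0.01 required on all 6 arrays, 5 metallothionein probes were fitted and 4 were higher. Among all kept probes 34.2% were called, 16.7% higher and 17.5% lower. In 23.1% the NU7441 arrays lay wholly above the vehicle arrays and in 23.9% wholly below. Nothing is read from the members' share, since the same contrast was known when they were picked. The MT1F probe and the 4 probes of MTF1, SLC30A1 and SLC39A10 were not past the threshold, and their groups overlapped.

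MT1G, a metallothionein of the MT1 subfamily, showed the largest difference of the members. Its probe, ILMN_1715401, gave deposited signals of 131.5, 118.1 and 121.5 on vehicle replicates 1 to 3 and of 390.7, 428.2 and 559.7 on the NU7441 arrays. The lowest NU7441 signal thus lay far above the highest vehicle signal, and the probe was detected on all 6 arrays. After background correction and normalisation the log2 intensity was 6.02 ± 0.10 in vehicle and 8.75 ± 0.12 in NU7441 (SD, n = 3). The log2 fold change, NU7441 over vehicle, was 2.73 ± 0.12 (SE), or 6.62-fold, and 1 of the 14973 kept probes had a larger one. Of the deposited means, 123.7 ± 7.0 and 459.5 ± 88.8 (SD, n = 3), the ratio was 3.71, since these signals include the array background. Without background correction the log2 fold change was 2.00.

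MT1X, another MT1 metallothionein, followed, with signals of 863.1, 774.6 and 880.8 in vehicle and 2275.4, 2296.9 and 2372.0 in NU7441. Both groups were tight and did not overlap. Its log2 intensity was 9.53 ± 0.03 in vehicle and 11.16 ± 0.15 in NU7441 (SD, n = 3), a log2 fold change of 1.63 ± 0.11 (SE), or 3.09-fold. Of all kept probes 23 had a larger log2 fold change. On the normalised scale NU7441 replicate 1 was the highest and replicate 3 the lowest of its group.

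MT2A, the single MT2 gene and the most widely expressed human metallothionein, gave signals of 2777.3, 3035.0 and 2958.6 in vehicle and 5734.0, 7195.3 and 7518.6 in NU7441. The log2 intensity was 11.48 ± 0.13 in vehicle and 12.67 ± 0.11 in NU7441 (SD, n = 3). The log2 fold change was 1.19 ± 0.12 (SE), or 2.28-fold, with 83 of the kept probes above it. The groups did not overlap. The highest signals of any probe on NU7441 replicates 1, 2 and 3 were 7365.4, 8176.2 and 8844.0, so the MT2A probe lay near the top of the measured range there, and the part of this in its fold change was not tested.

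MT1E was read by 2 probes that both lay higher in NU7441. The brighter, ILMN_2173611, gave 3303.2, 3097.6 and 3298.1 in vehicle and 5601.8, 4925.9 and 5344.7 in NU7441. Its log2 fold change was 0.65 ± 0.12 (SE), or 1.57-fold. On NU7441 replicate 1 its signal lay close to that of MT2A, 5734.0. The part of the measured range in its fold change was not tested either. The dimmer, ILMN_1718968, gave 75.4, 72.7 and 83.4 in vehicle and 91.3, 92.3 and 103.1 in NU7441. It was detected on 1 of 3 vehicle arrays and on all 3 NU7441 arrays, so it passed the detection filter through the group in which it was brighter. Its log2 fold change of 0.93 ± 0.14 (SE) became 0.33 in the submitters' log2 table, where no background correction is apparent.

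MT1F, an MT1 gene that lies between MT1B and MT1G on chromosome 16, did not pass the threshold. Its signals were 249.0, 205.0 and 252.2 in vehicle and 190.7, 213.0 and 244.6 in NU7441, and it was detected on all 6 arrays. The groups overlapped, and the log2 intensity was 7.39 ± 0.13 in vehicle and 7.42 ± 0.05 in NU7441 (SD, n = 3). The log2 fold change of 0.03 ± 0.11 (SE) was under its own standard error. It was -0.11 with 75th percentile scaling over all probes.

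MT1M, also an MT1 gene, was the member whose probe did not pass the detection filter. Its signals were 74.4, 77.4 and 69.2 in vehicle and 71.0, 69.1 and 70.8 in NU7441, with a detection p of 0.0351 on vehicle replicate 2 and above 0.05 elsewhere. Signals of this size lie at the array background and no fold change is given. The dimmer MT1E probe met the filter through NU7441 alone and the SLC39A10 probe through vehicle alone.

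In the order of log2 fold changes, MT1G lay 1.10 above MT1X, where the combined SE was 0.16. The size of this gap, though not the order, depended on the background correction. Without it MT1G was at 2.00 and MT1X at 1.56, and in the submitters' table they were at 2.05 and 1.55. MT1X lay 0.44 above MT2A, and the brighter MT1E probe 0.62 above MT1F, each with a combined SE of 0.16. The combined SE takes the 2 probes as independent, though both were read on the same arrays, so these gaps are a description. The dimmer MT1E probe has no settled place in this order, since without background correction it was at 0.34 and the brighter at 0.64. By deposited signal, 9 of the 10 kept probes were highest on NU7441 replicate 3 within their group, all but the brighter MT1E probe. On the normalised scale 7 were highest on replicate 3, among them MT1G and MT2A, and 3 on replicate 1, namely MT1X, the brighter MT1E probe and SLC30A1 probe ILMN_2067852. NU7441 replicate 3 also had the highest median and maximum signal of its group, 75.3 and 8844.0. The share of all kept probes highest on each array was not counted, so nothing about the members is read from these counts. Metallothionein transcripts are alike in sequence, the probe sequences were not used here, and how far a probe also reads a related gene was not tested.

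**Figure D2:**
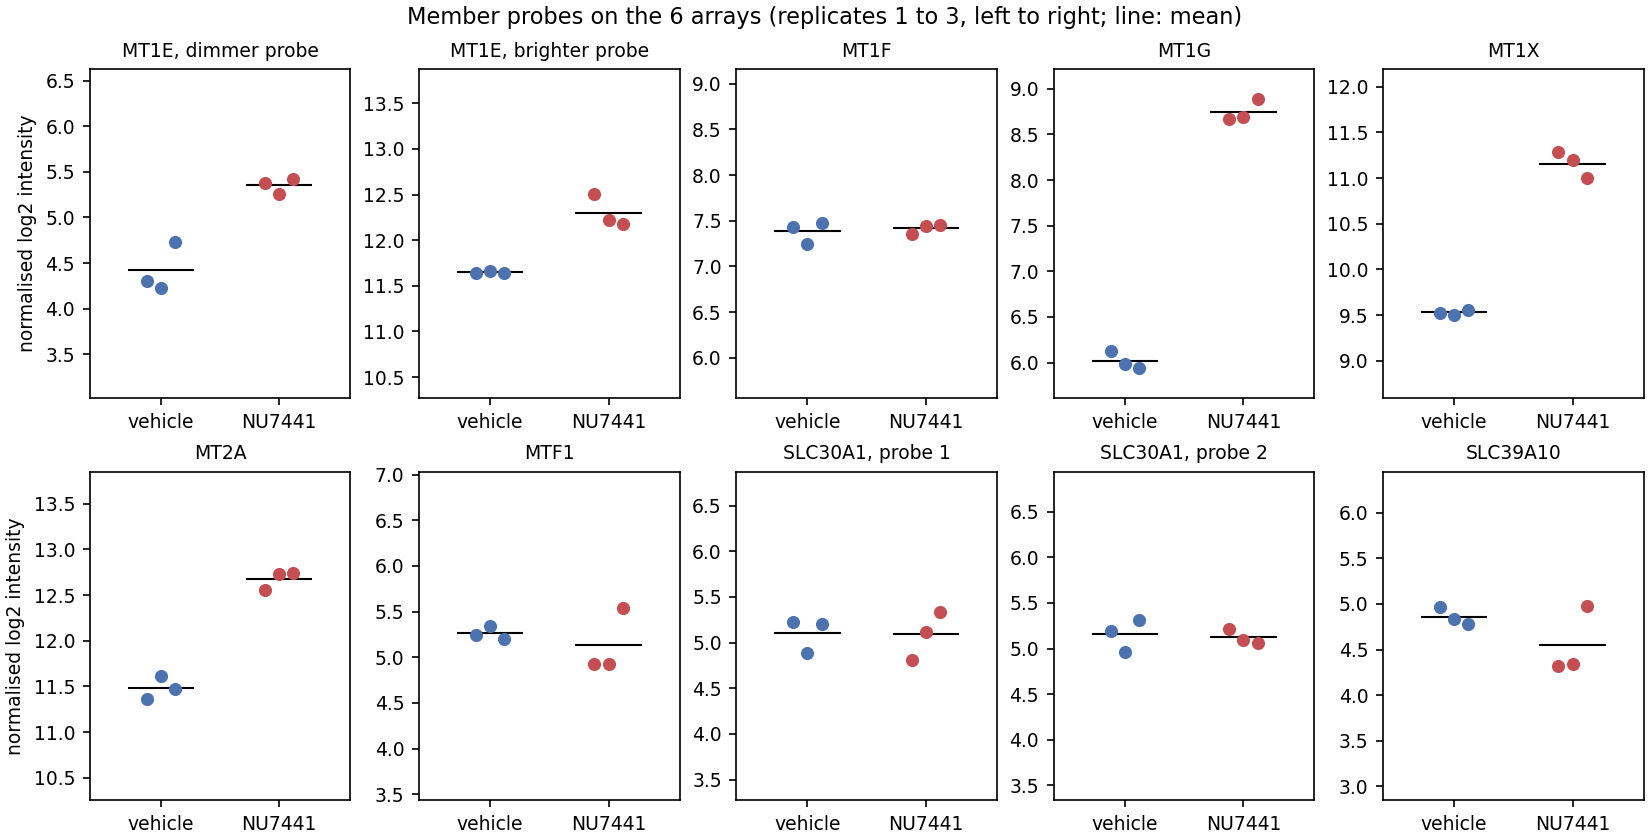
Normalised log2 intensity of the 10 kept member probes on each array, with vehicle in blue, NU7441 in red, replicates 1 to 3 from left to right, a line at each mean and the same span on every vertical axis. MT1G, MT1X, MT2A and both MT1E probes show separate groups, while MT1F, MTF1, SLC30A1 and SLC39A10 overlap.

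**Figure D3:**
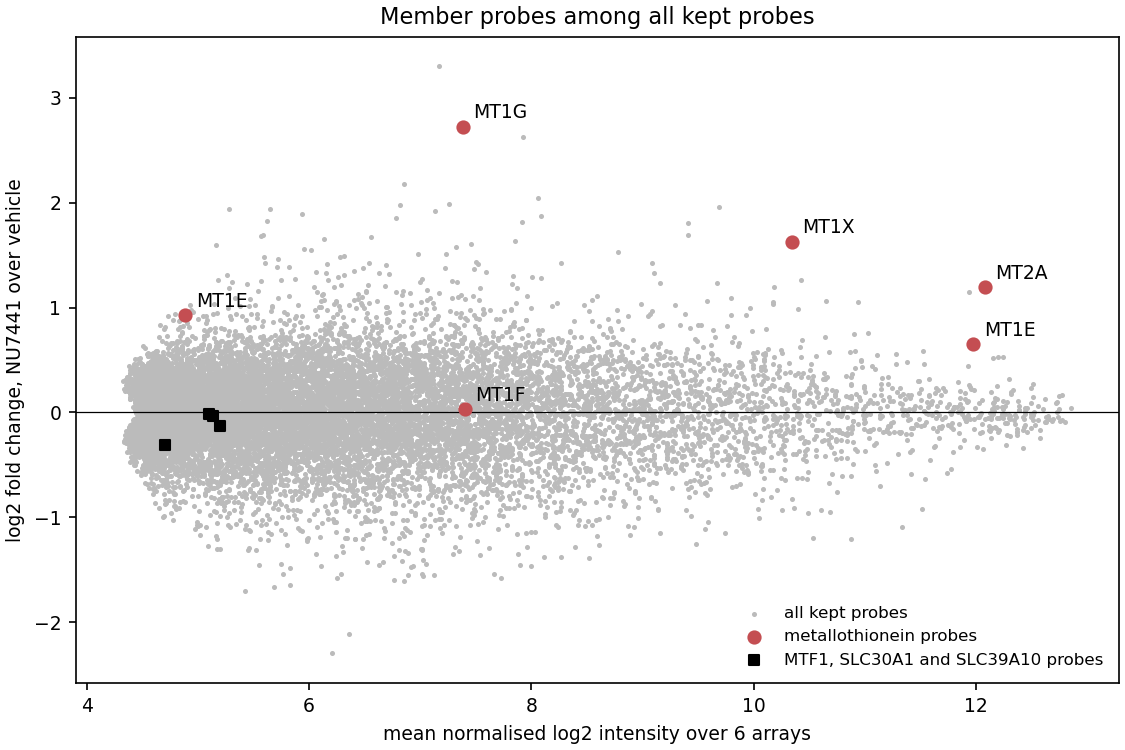
Log2 fold change, NU7441 over vehicle, against mean normalised log2 intensity over the 6 arrays for the 14973 kept probes in grey, metallothionein probes in red and MTF1, SLC30A1 and SLC39A10 probes as black squares. MT1G at 2.73 lies at the upper edge, MT1F at 0.03 lies near 0, and the black squares lie at the dim end between -0.31 and -0.02.

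MTF1, the regulator of these genes, gave signals of 95.9, 95.8 and 94.6 in vehicle and 82.6, 85.2 and 107.2 in NU7441. NU7441 replicate 3 lay above the vehicle arrays and the other two below them. The log2 fold change was -0.13 ± 0.15 (SE). Without NU7441 replicate 3 it was -0.33 and past the threshold, while with 75th percentile scaling it was 0.02, where the median of all kept probes stood at 0.11 in place of 0.01.

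SLC30A1, the exporter, was read by 2 probes with closely similar values. ILMN_1745021 gave 95.6, 85.1 and 94.7 in vehicle and 80.8, 89.1 and 100.5 in NU7441, a log2 fold change of -0.02 ± 0.14 (SE). ILMN_2067852 gave 94.6, 86.6 and 97.8 in vehicle and 88.0, 88.5 and 92.3 in NU7441, a log2 fold change of -0.04 ± 0.12 (SE). On both probes the groups overlapped. Both were positive with 75th percentile scaling, at 0.13 and 0.09. The median of all kept probes stood at 0.11 there, in place of 0.01. With 1 array left out ILMN_1745021 ran from -0.14 to 0.12 and ILMN_2067852 from -0.13 to 0.04.

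SLC39A10, the importer, gave 88.8, 84.1 and 84.4 in vehicle and 73.5, 75 and 90.3 in NU7441. It was detected on all vehicle arrays and, in NU7441, on replicate 3 alone. Its log2 fold change was -0.31 ± 0.16 (SE), and the groups overlapped through that array. Without NU7441 replicate 3 it was -0.51 and past the threshold, and without background correction -0.10. Leaving out that replicate made 2 of the 4 probes of MTF1, SLC30A1 and SLC39A10 lower in place of 0. The signals of all 4 probes lay at 107.2 or below, where the array medians were 72.8 to 75.3.

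The metallothionein genes of chromosome 16 form 1 cluster of 16 annotated loci, 11 of them protein-coding, in the order MT4, MT3, MT2A, MT1L, MT1E, MT1M, MT1JP, MT1A, MT1DP, MT1CP, MT1B, MT1F, MT1G, MT1H, MT1IP and MT1X. MT2A and MT1X, near its ends, and MT1E and MT1G within it were higher, with MT1F, which did not pass the threshold, and MT1M, which did not pass the detection filter, among them. A list of 10 metallothionein loci outside the members held MT1HL1 and MT1P1, which are not among these 16 loci, but not MT1CP. Of the 10, 6 had a named probe and 1, MT1H, had a kept one. That MT1H probe gave signals of 79.6, 80.3 and 75.8 in vehicle and 76.1, 83.3 and 85.2 in NU7441, groups that overlapped. It was detected on 2 vehicle arrays and on all 3 NU7441 arrays, so it met the filter through NU7441 alone. Its log2 fold change was 0.20 ± 0.13 (SE, limma adjusted p = 0.245). Its second probe and those of MT1B, MT1L, MT3 and MT4 were detected on 0 of 6 arrays, and that of MT1IP on 2 NU7441 arrays.

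The 3 measured genes nearest to the cluster on each side, taken by position once the member values were known, went several ways. Before it, BBS2, a protein of the primary cilium, was higher at 0.71 ± 0.15 (SE, limma adjusted p = 0.00212), while OGFOD1 and NUDT21 stood at -0.30 and -0.28 without passing the threshold. After it, NUP93, a nuclear pore protein, was lower at -0.69 ± 0.14 (SE, limma adjusted p = 0.0022) and PSME3IP1 at -0.42 ± 0.13 (SE, limma adjusted p = 0.0209). RSPRY1, the next, was at 0.22 and did not pass. The PSME3IP1 probe was dim, with log2 intensities of 4.60, 4.97 and 4.75 in vehicle and 4.33, 4.52 and 4.23 in NU7441, near the array background.

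The other zinc transporters comprise SLC30A proteins, which mostly move zinc out of the cytosol, SLC39A proteins, which mostly move it in, and TMEM163. Of 23 such genes 14 were measured, each by its brightest kept probe, and 1 was higher and 2 were lower at a limma adjusted p below 0.05. Among all 9342 genes 17.7% were called higher and 18.9% lower. The median log2 fold change of the 14 was -0.20, against 0.00 for all genes. With any 1 vehicle array or NU7441 replicate 2 left out, 1 was lower, and without vehicle replicate 2 the count of higher genes was 0. Without NU7441 replicate 3 it was 2.

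SLC39A8, also called ZIP8, an importer of zinc and manganese, read 5.91, 5.70 and 5.53 on the log2 scale in vehicle and 5.23, 4.72 and 5.26 in NU7441. All NU7441 arrays lay below all vehicle arrays, and the log2 fold change was -0.64 ± 0.15 (SE, limma adjusted p = 0.00467). Its second kept probe was at -0.66. Without background correction the log2 fold change of the first was -0.27, and in the submitters' table -0.26. With no detection filter the adjusted p was 0.0514.

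SLC30A5, a loader of zinc into the secretory pathway, read 7.24, 7.17 and 7.15 in vehicle and 6.90, 6.62 and 6.89 in NU7441 on the log2 scale, a log2 fold change of -0.38 ± 0.12 (SE, limma adjusted p = 0.0206). Its second kept probe was at 0.25, so the probes of this gene disagreed in sign. The adjusted p was 0.0749 without vehicle replicate 1, 0.0543 without replicate 2, 0.0524 without replicate 3 and 0.0932 without NU7441 replicate 2. SLC30A9, a mitochondrial zinc transporter, read 7.84, 7.71 and 7.77 in vehicle and 8.12, 8.07 and 8.28 in NU7441. Its log2 fold change was 0.38 ± 0.11 (SE, limma adjusted p = 0.0174), with an adjusted p of 0.0728 without vehicle replicate 2 and 0.0554 without replicate 3. The other 11 lay between -0.29 and 0.36 and did not pass, among them the plasma membrane importers SLC39A4, SLC39A6 and SLC39A14 at -0.18, -0.27 and -0.23.

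**Figure D4:**
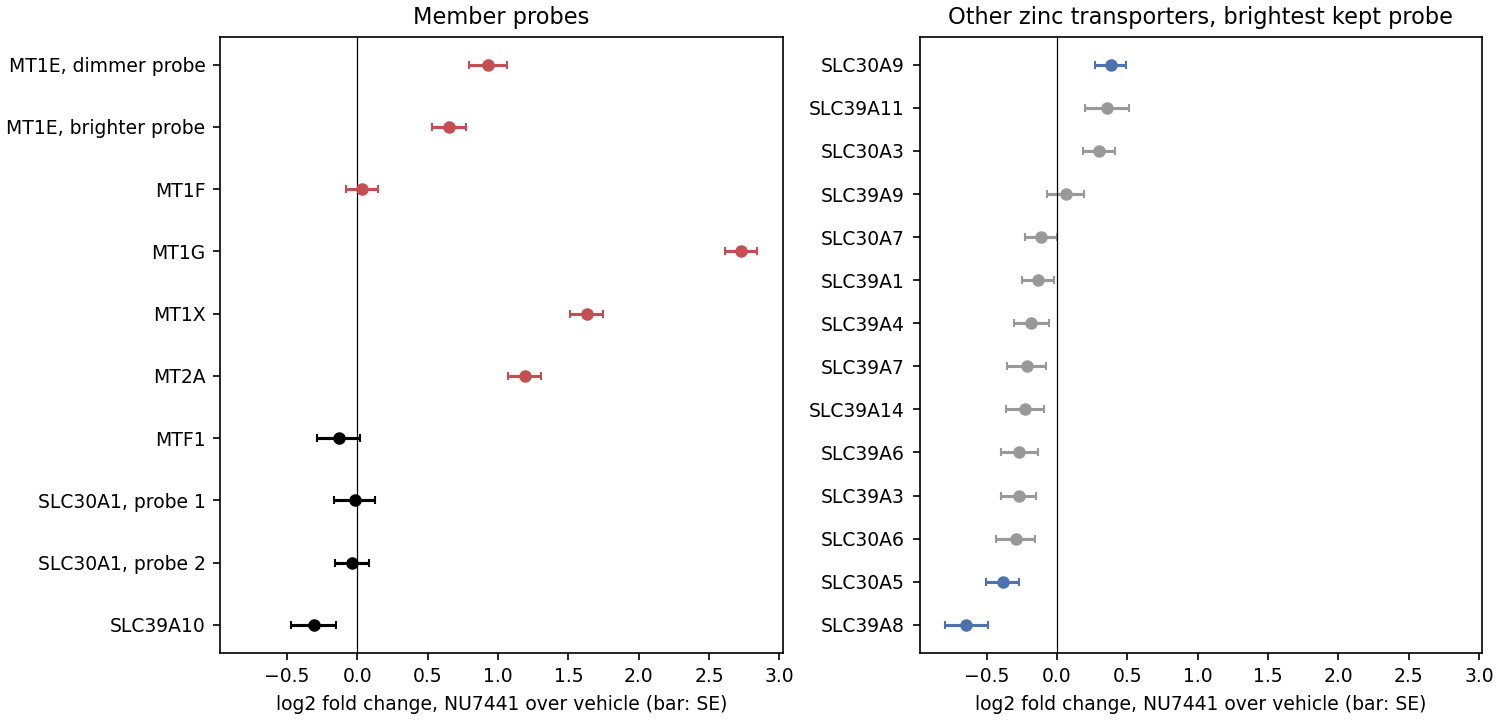
Log2 fold change, NU7441 over vehicle, with bars for the SE of the fit. The left panel holds the member probes, metallothioneins in red and the others in black, and the right panel the 14 other zinc transporters by their brightest kept probe, blue where the limma adjusted p was below 0.05 and grey otherwise. The transporters lie between -0.64 and 0.38, while 3 metallothionein genes exceed 1.

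Genes listed here as metal-responsive moved in both directions. Whether each of them, HSPA8 and TXNRD2 included, responds to metals in these cells was not tested. Of 15 measured of 20 listed, 6 were higher and 4 lower, with a median of -0.04, against 17.7% higher and 18.9% lower among all genes. The glutathione synthesis gene GCLC read 6.30, 6.19 and 6.13 in vehicle and 7.33, 7.31 and 7.43 in NU7441, a log2 fold change of 1.15 ± 0.11 (SE, limma adjusted p = 5.64e-06). NDRG1, SQSTM1 and TXNRD1, a thioredoxin reductase, were higher at 1.87, 1.05 and 1.04. The stress-induced chaperone HSPA1B read 10.14, 10.21 and 10.13 in vehicle and 9.35, 9.50 and 9.50 in NU7441, a log2 fold change of -0.71 ± 0.11 (SE, limma adjusted p = 0.000241). HSPA8, TXNRD2 and HSPH1 were lower at -0.76, -0.52 and -0.42. Without background correction GCLC was at 0.76 and TXNRD2 at -0.27, both still past the threshold. HMOX1, the haem oxygenase induced by many metals, was at 0.22 ± 0.15 (SE, limma adjusted p = 0.278). HMOX1 falls outside the rule for named genes and was chosen after its value was seen.

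Of 24 measured genes of copper and iron handling, from 34 listed, 3 were higher and 4 lower, with a median of 0.02. The shares among all genes were 17.7% higher and 18.9% lower. CCS, the copper chaperone of superoxide dismutase, was higher at 0.59 ± 0.11 (SE, limma adjusted p = 0.00117) and FTL, the ferritin light chain, at 0.53 ± 0.11 (SE, limma adjusted p = 0.00273). ACO1, the iron-responsive element binding protein, was at 0.40, and was past the threshold neither without vehicle replicate 1 or 3 nor without NU7441 replicate 1 or 2. STEAP3, a ferrireductase, was lower at -0.73 ± 0.11 (SE, limma adjusted p = 0.000218) and SCO1, a copper carrier for cytochrome oxidase, at -0.45 ± 0.12 (SE, limma adjusted p = 0.00857). SLC25A28 at -0.43 and PCBP1 at -0.35 were lower too, and the count of lower genes was 2 without any 1 of the vehicle arrays or without NU7441 replicate 3. Without background correction CCS was at 0.31 and STEAP3 at -0.34, both still past the threshold, while 75th percentile scaling put FTL at 0.82. Of this list, 2 genes were higher without vehicle replicate 1 or 3 or NU7441 replicate 1 or 2.

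Metallothionein genes, MT2A above all, also respond to glucocorticoids. Of 14 measured genes of a glucocorticoid list of 22 symbols, 7 were higher and 2 lower, with a median of 0.30. All genes together gave 17.7% higher and 18.9% lower. Of the 7 on the list, ZBTB16 was detected on 0 and CRISPLD2 on 2 of the 3 vehicle arrays. Both met the filter through NU7441 alone. They were named after their values were seen. With detection below 0.01 required on all 6 arrays 11 genes were measured and 5 were higher, and without background correction 5 of the 14 were higher. TSC22D3, also called GILZ, was higher at 0.68 ± 0.13 (SE, limma adjusted p = 0.00103), with a second probe at 0.70. Without background correction it was at 0.30. ANGPTL4 was at 1.13 with a second probe at 0.28 that did not pass, and NFKBIA and SGK1 were at 0.49 and 0.41. Of the other SGK1 probes, that at 0.37 passed and that at 0.22 did not. Without background correction ANGPTL4 was at 0.68 and SGK1 at 0.19, and with the 75th percentile over all probes NFKBIA was at 0.31 and no longer past the threshold. The call of SGK1 was lost without vehicle replicate 1 or 2 or NU7441 replicate 1. FKBP5, a co-chaperone of the glucocorticoid receptor induced by its ligand, was lower at -0.36 ± 0.11 (SE, limma adjusted p = 0.0229), a call lost without vehicle replicate 1 or 2 or NU7441 replicate 1. ERRFI1 was lower at -1.11 ± 0.11 (SE, limma adjusted p = 9.5e-06). The count of higher genes was 4 without vehicle replicate 2 or 3 or NU7441 replicate 2, and that of lower genes 1 without vehicle replicate 1 or 2.

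**Figure D5:**
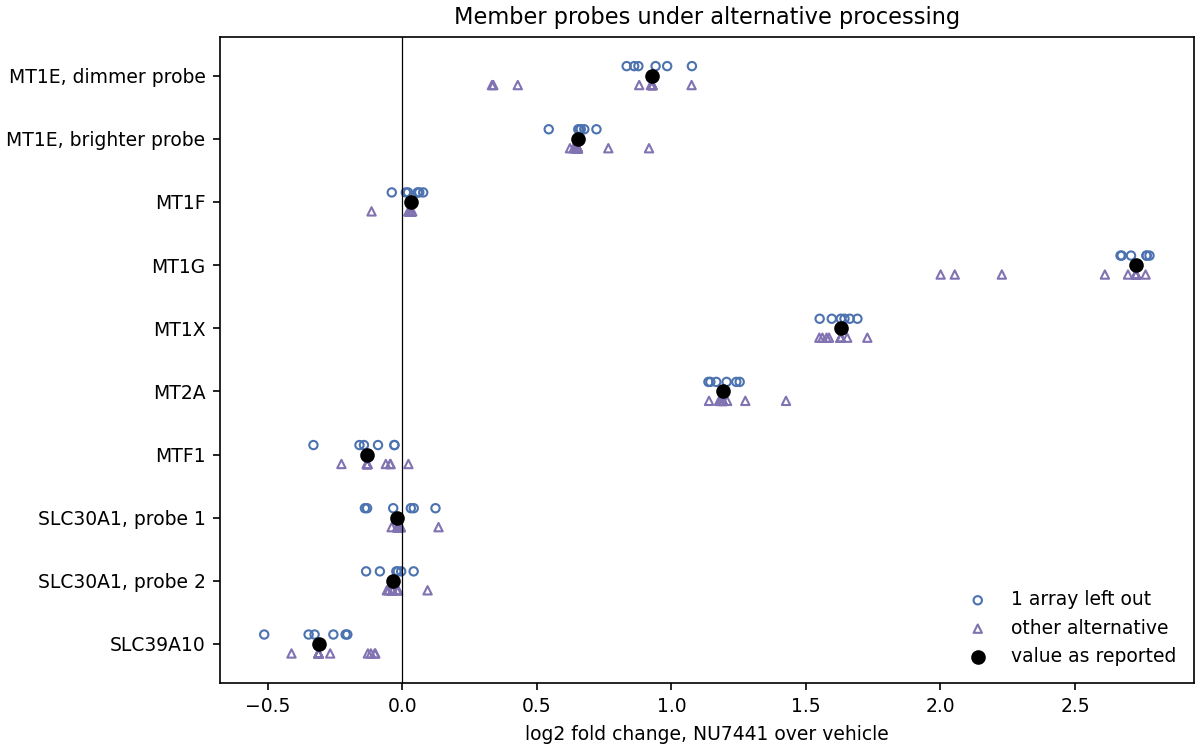
Log2 fold change, NU7441 over vehicle, of each kept member probe as reported (black), with 1 array left out (blue circles) and under the other alternatives (purple triangles). MT1G ranges from 2.00 to 2.78 and MT1X from 1.55 to 1.73, MT1F lies on both sides of 0, and SLC39A10 ranges from -0.51 to -0.10.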

How the data were processed

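Total RNA of 6 HCT116 samples was measured on Illumina bead arrays. Per the file headers, the deposited signals are intensity values on a linear scale without normalisation between arrays. Each comes with a detection p-value, also deposited. A second deposited table holds log2 values that differed by at most 0.0676 from the log2 signals after quantile normalisation alone. Its columns each had a median of 6.22, were not centred and correlated best with their own array. It holds no value for 1 probe. GenomeStudio, R 3.0.2 and lumi are named, with no role or order, per the submitters' processing notes.

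The background was removed with limma's neqc (limma 3.58.1, R 4.3.3; normexp with offset 16, negative controls inferred from detection p), and values were quantile normalised and put on the log2 scale. A probe needed a detection p below 0.05 on all 3 arrays of a group. Of 47323 probes, 30112 had 1 gene symbol, 8 had several and the rest none, from GEO's platform annotation, and 0 symbols needed an update. All 14973 kept probes were fitted with lmFit and eBayes, group as the only term, with Benjamini-Hochberg adjustment and a threshold of 0.05. Lists count each gene by its brightest kept probe. The members and lists were chosen with earlier results of these data known. Members were named with every probe, and from each list up to 4 changed genes per direction with the largest change. The fit was tested on simulated data. Slides are not given in the files, so no slide block was run. Motifs were searched and figures drawn with Python 3.11.15 and matplotlib 3.10.9.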

Additional observations from a re-analysis of the deposited data

How the results depend on the processing

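Under 19 alternatives, 1 of them added after seeing the data (the 75th percentile over all probes, not those detected on all arrays), the log2 fold changes of MT1G, MT1X, MT2A and both MT1E probes kept their sign and stayed past the threshold wherever the probe was fitted. MT1F did not pass in any of them. The alternatives reuse the arrays on which the members were picked, so for the members this is a description and not a test. The dimmer MT1E probe was not fitted with detection below 0.01 required on all 6 arrays. The 4 probes of MTF1, SLC30A1 and SLC39A10 held 1 lower with array weights and 0 to 2 with 1 array left out. Of the zinc transporters, 2 were higher without background correction, with offset 50, with 75th percentile scaling, in the submitters' table, with detection below 0.01 on all 6 arrays, with 1 probe per gene, with all probes of a gene averaged, with trend and robust variances and with array weights. Their count was 0 with the percentile over all probes or at an adjusted p below 0.01, and 0 to 2 with 1 array left out. The lower ones numbered 4 with the percentile over all probes, 1 with no filter, 1 with the mean of probes, 1 at 0.01, and 1 to 3 with 1 array left out. For copper and iron, 5 were higher with 75th percentile scaling and 2 lower at 0.01, and both counts ran from 2 to 4 with 1 array left out. For glucocorticoid genes, 3 were higher and 1 lower at 0.01, with 4 to 6 higher and 1 to 2 lower when 1 array was left out. MT1H passed with 75th percentile scaling, at 0.39 (limma adjusted p = 0.0329), and was at 0.12 to 0.31 with 1 array left out. The cause of these changes was not tested.

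With 75th percentile scaling the share of called probes that were higher was 65.9%, and 36.5% with the percentile over all probes, against 48.9%. With no detection filter 8.29% of 47323 probes were called, and 20.2% of the kept probes at 0.01, against 34.2%. Same-numbered arrays correlated at -0.11, 0.05 and -0.07 in their deviations, and 1 of 6 arrays correlated best with its own number. This gave no sign of pairing by replicate number, but 3 arrays per group are too few to exclude it. With the replicate block the metallothionein count stayed at 5 higher, and 2390 kept probes were higher and 2469 lower, against 2502 and 2618. Signal near the array background limits MT1M, the dimmer MT1E probe, MT1H, PSME3IP1, MTF1, SLC30A1 and SLC39A10.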
